A study of Mus musculus with 22 samples.

Results

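Oct4 peaks that lay between genes, 10 to 100 kb from the nearest protein-coding transcript start, are described here, the range in which distal enhancers of a gene often sit. The peaks were chosen by the place of their summit, the base with the highest fragment pileup, on chromosomes 1 to 19 of GRCm38: outside every protein-coding gene body of GENCODE M21, more than 10 kb and at most 100 kb from the nearest protein-coding start, and outside 19 bins of 1 Mb in which either list held 20 or more summits. The rule kept 704 of 5455 wild-type peaks (12.9%) and 1188 of 7479 knockout peaks (15.9%). Because the rule reads the called peaks, the numbers of members and their distances are given as a description.

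The chromatin came from frozen aortic segments, from the root and arch to the carotid bifurcation, of mice with SMC Oct4-WT/WT (wild-type) or SMC Oct4-Δ/Δ (knockout) genotype on the C57BL/6 strain, 15 mice per genotype, all fed a Western diet for 18 weeks. The animals were atherosclerosis-prone apoE-/- mice. Tamoxifen, which activates the recombinase that deletes Oct4, was given to mice of either genotype from 6 to 8 weeks of age. All animals of this cross were male, since the Cre transgene, driven by the SMC promoter of Myh11, is Y-linked. The age at collection of the chromatin is not given in the sources used here. The knockout removes Oct4 in smooth muscle cells (SMC) only, and the labels describe the tissue as a mixture of cell types, so that other cells kept their Oct4 alleles. There was 1 pooled ChIP sample per genotype, the spread between replicates is not known, and no test between the genotypes was possible.

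Oct4 (encoded by Pou5f1) is a POU-family transcription factor of pluripotent cells that binds an 8-base octamer element, often beside a SOX element in pluripotency enhancers. Much of the space between mouse genes consists of repeats. These include SINEs, short interspersed copies, of which the B1 family of rodents and the Alu family of primates descend from the 7SL RNA gene, satellite arrays at centromeres, and TTAGGG arrays like those of chromosome ends.

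At the edges of the rule, the nearest wild-type summit kept lay 10063 bp from the start of Gm9747, with a fold enrichment of 9.60, and the last summit left out lay 9892 bp from the start of Iqsec1, with a fold of 7.54. Knockout summits at the same edge lay 10047 bp from Nol11 (fold 12.3) and 9939 bp from Vmn1r238 (fold 6.16). At the outer limit, the most distant members of both lists belonged to the same site near Wls, at 99887 bp and a fold of 45.3 in the wild-type and at 99832 bp and a fold of 45.8 in the knockout. The first peaks left out beyond it lay near Otogl at 100148 bp in both lists, with folds of 13.0 and 21.2. The fullest bin that was kept held 19 summits in each list.

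Several kinds of sequence stood at the summits of the strongest members, and examples are printed on the forward strand of GRCm38, from the RefSeq assembly. Capitals mark exact tandem repeats of at least 20 bases, except in the Dpy19l1 sequence, where they mark a match to the box bound by the centromere protein CENP-B (sought on both strands, and held by 13 of the 252524 windows of the intergenic space described further on). The Rpusd4 sequence is of the mouse major satellite type and the Dpy19l1 sequence of the minor satellite type, the repeats of pericentromeric and centromeric chromatin. Ly75 and Sulf1 show a GGAAT array, and Zfp825 an array of the pentamer CAGCA. Other members, among them those near Chst2 and Mylk, had TTAGGG arrays at their summits.
Rpusd4, chr9:35305339-35305419: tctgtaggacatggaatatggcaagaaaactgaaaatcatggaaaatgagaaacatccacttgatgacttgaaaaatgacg
Dpy19l1, chr9:24542060-24542140: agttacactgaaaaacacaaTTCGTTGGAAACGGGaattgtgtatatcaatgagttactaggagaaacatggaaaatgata
Ly75, chr2:60402760-60402840: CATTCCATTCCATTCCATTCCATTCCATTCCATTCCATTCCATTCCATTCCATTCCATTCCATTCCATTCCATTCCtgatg
Sulf1, chr1:12644770-12644850: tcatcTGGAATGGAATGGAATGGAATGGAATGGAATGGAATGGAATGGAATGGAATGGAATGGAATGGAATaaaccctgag
Zfp825, chr13:74530517-74530597: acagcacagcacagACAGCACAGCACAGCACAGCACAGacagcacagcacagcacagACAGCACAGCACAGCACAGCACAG

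A second and more numerous kind held short words of SINEs. The words TGTAATCCC, GGAGGCTGA and GTAGCTGGG were searched as the forms found in Alu sequences, and TTTAATCCC and GGAGGCAGA as the forms of mouse B1, on both strands and within 100 bp of the summit. They were chosen after the strongest windows had been read. The members near Ntrk2 and Pard6b were the strongest with an Alu-type word. Among the genes of the lists described further on, the members near Sox2, Itga8 and Tgfbr2 held an Alu-type word and the member near Klf17 held B1-type words. The member near Akap12, among the strongest knockout members without a wild-type peak, held an Alu-type word.

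Fold enrichment, the summit pileup plus 1 over the expected pileup plus 1 as MACS2 gives it, had similar medians and quartiles in both lists. The median was 8.23 in the wild-type (quartiles 6.86 and 11.7, range 4.11 to 56.9) and 8.21 in the knockout (quartiles 6.84 and 11.6, range 4.10 to 54.0). All fold values were whole multiples of 0.686 (wild-type) or 0.684 (knockout), within 0.01 of a step, so that the pileup could be read back in fragments. The median summit held 11 fragments in either list and the weakest 5, so most members rested on few fragments. The intervals of single pileups given here are exact 95% Poisson intervals and those of shares exact (Clopper-Pearson) 95% binomial intervals, which cover counting error only and take no account of sites that lie close together.

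The pileup had a ceiling. No peak of either list exceeded 82 fragments (wild-type) or 78 (knockout), and 15 and 20 peaks stood exactly at these values. The narrowest peaks measured 41 bp and 39 bp, and the ceilings are 2 times these widths, the most that can pile up if each start position is counted once per strand and fragments are extended to the narrowest width. Of the members, 41 of the wild-type and 54 of the knockout lay at or above 50% of the ceiling. For these the fold is a compressed measure, and the ratio of the ceilings themselves, knockout over wild-type, is 0.951.

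The strongest members were the same sites in both genotypes. The member 37.5 kb from Rpusd4, a gene for a pseudouridine synthase, reached 82 wild-type fragments (interval 65.2 to 101.8) and 78 knockout fragments (interval 61.7 to 97.3), with folds of 56.9 and 54.0. The GGAAT member 47.5 kb upstream of Sulf1, which encodes a heparan sulfate sulfatase, gave 78 fragments in both. The member 19.5 kb upstream of Ly75, an endocytic receptor of dendritic cells, gave 79 and 77. All of these pairs were at or within 5 fragments of the ceiling, and their intervals overlapped.

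The same held for the other leading sites. The member upstream of Gm8882 gave folds of 56.2 and 54.0, the member upstream of Dpy19l1 gave 50.1 and 48.6, and the member upstream of Tbc1d23 gave 48.7 and 50.6, wild-type first. Upstream of Zfp825, a zinc finger gene, the pentamer array on chromosome 13 held the members with folds of 52.8 and 50.1 in the wild-type, against knockout folds of 49.3 and 42.4 at the overlapping peaks. Upstream of Ccn1, which encodes a matricellular protein of the vessel wall, the GGAAT member was among the leading 12 of the knockout, with a fold of 49.3 against 41.1 in the wild-type. Members at the end of the assembled chromosome, near Tmem196, Rfc3 and A630089N07Rik, had wild-type folds of 49.4, 49.4 and 45.9 and knockout folds of 45.1, 48.6 and 46.5.

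Of the 704 wild-type members, 571 overlapped a knockout peak by at least 1 bp, a share of 81.1% (78.0 to 83.9), beside 80.2% of all 2840 wild-type peaks outside the dense bins. Of the 1188 knockout members, 576 overlapped a wild-type peak, 48.5% (45.6 to 51.4), beside 47.3% of all 4828 such knockout peaks. The members' shares were thus close to the background of their own lists. Summits of overlapped members lay a median of 3 bp apart, and 533 of the 571 wild-type members had the knockout summit within 20 bp.

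Overlap rose with fold in both lists. From a fold of 15 upwards, all 123 wild-type members (exact interval from 97.0%) and all 183 knockout members (from 98.0%) were overlapped. From 8 to below 10, corresponding to 11 to 13 fragments, 92.0% of 163 wild-type members (86.7 to 95.7) but 45.2% of 263 knockout members (39.1 to 51.5) had a peak in the other list. From 10 to below 15 the shares were 99.1% and 78.6%, and below 6 they were 14.9% and 14.3%. The intervals of the lists did not overlap between folds of 6 and 15, and the knockout list was the longer outside the dense bins. The overlapped members numbered 571 of 704 and 576 of 1188, so the shares follow the length of each list. These intervals count peaks within 1 sample per genotype and do not compare the genotypes. All folds of a list rest on 1 expected pileup, 0.458 (wild-type) or 0.462 (knockout) fragments, with no correction for the local background of a site.

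**Figure D1:**
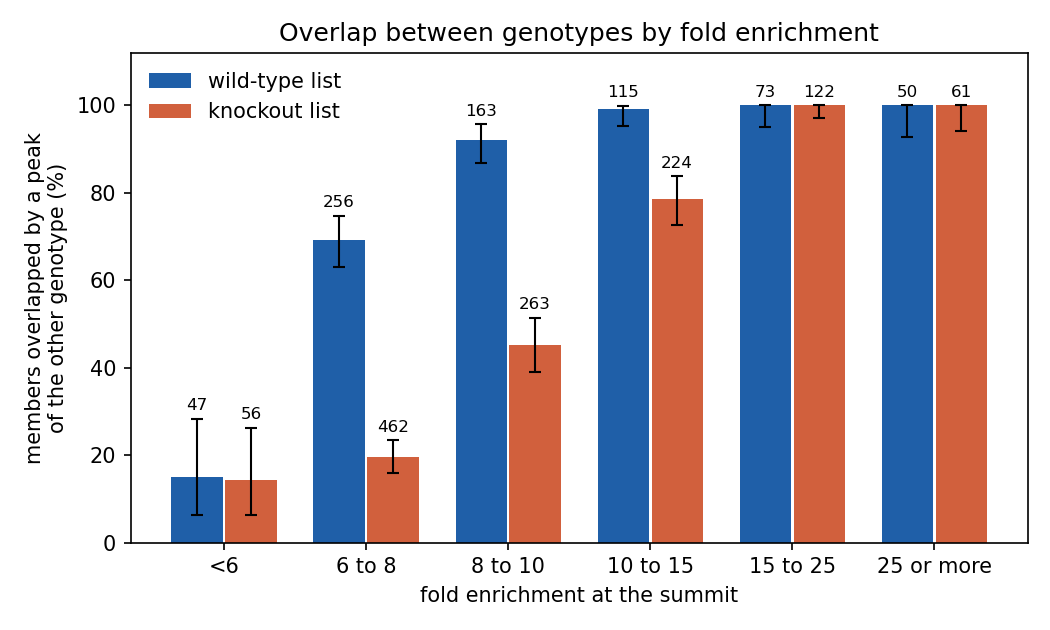
Share of members overlapped by at least 1 bp by a peak of the other genotype (y axis, percent) in classes of fold enrichment (x axis), for the wild-type list (blue) and the knockout list (orange). Error bars are exact 95% binomial intervals and the numbers above them count the members, and both lists reach 100% from a fold of 15.

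Members without a peak in the other genotype were weak. The 133 such wild-type members had a median fold of 6.86 and reached at most 11.7, and the 612 such knockout members had a median of 7.52 and reached at most 14.4. The strongest in the wild-type lay 31.6 kb upstream of Vmn2r12, a vomeronasal receptor gene, with 16 fragments (9.15 to 26.0). It was followed by a site 12.8 kb upstream of Ern1, the endoplasmic reticulum stress sensor, with 13 fragments (6.92 to 22.2). Sites of 12 fragments each followed near Chd1, Spink2, Gsx1 and Lsm6, and sites of 11 near Ttll4 and Anapc15-ps. A run of a single base lay within 100 bp of the summit near Vmn2r12, Ern1, Spink2, Lsm6 and Anapc15-ps. The Vmn2r12 and Ern1 sequences show such runs in capitals.
Vmn2r12, chr5:109129468-109129548: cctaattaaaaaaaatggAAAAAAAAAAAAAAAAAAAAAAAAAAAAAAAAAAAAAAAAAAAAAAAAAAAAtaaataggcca
Ern1, chr11:106500634-106500714: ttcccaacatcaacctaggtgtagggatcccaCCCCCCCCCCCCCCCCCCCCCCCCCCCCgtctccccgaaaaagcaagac

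In the knockout, the strongest members without a wild-type peak held 20 fragments each (12.2 to 30.9). They lay 79.5 kb upstream of Akap12, a scaffold protein of protein kinase A, 26.1 kb upstream of Enpp5, and 74.7 kb downstream of the start of CK137956. Near Stfa3, Aarsd1, Slc9a3 and Ccnh such members held 18, 17, 17 and 17 fragments. The sites near Enpp5 and CK137956 hold no tandem repeat and none of the searched words. These members were chosen for their high knockout pileup, so nothing is read from their distance to the 5 fragments of the weakest peaks. A list of called peaks gives no pileup at a site that was not called, so the size of the difference at unmatched sites cannot be given.

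Tandem repeats were frequent at the members' summits. A run of at least 20 bases of an exact repeat with a unit of 1 to 6 bases lay within 100 bp of the summit in 214 wild-type members, 30.4% (27.0 to 33.9), and in 260 knockout members, 21.9% (19.6 to 24.3). Windows of the same size 1000 bp to either side held such a run in 8.49% and 8.78%. Over the whole eligible space, 505 Mb sampled every 2000 bp in 252524 windows, 6.89% did. At a fold of 25 or more, 40 of 50 wild-type and 39 of 61 knockout members had a tandem repeat.

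The repeat units differed in how far they stood above their surroundings. TTAGGG arrays occurred in 40 wild-type members (5.68%) and 39 knockout members (3.28%), in none of the 1390 and 2358 flank windows and in 14 windows of the space (0.00554%). GGAAT arrays occurred in 13 members of each list, in no flank and in 1 window of the space. The CAGCA pentamer occurred in 15 and 17 members, and in 8 and 12 flanks. Runs of a single base occurred in 93 wild-type members (13.2%) and 109 knockout members (9.18%), against 0.504% and 0.679% of flanks. All other units together were as frequent at the summits (7.53% and 6.90%) as in the flanks (7.41% and 7.59%).

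TTAGGG members were not only at chromosome ends. Of the 40 in the wild-type, 13 lay within 200 kb of the end of an assembled chromosome, with a median fold of 43.9, and 27 lay elsewhere, with a median of 17.8 and a range of 7.54 to 42.5. The knockout had 13 at ends (median 43.8) and 26 elsewhere (median 18.5). Among those elsewhere, the member 19.3 kb upstream of Chst2, a carbohydrate sulfotransferase gene, had a wild-type fold of 42.5 and a knockout fold of 32.8. The members near Stt3b gave 41.1 and 32.8, and the members near Bdkrb2, the bradykinin B2 receptor, gave 36.3 and 35.6. In all, 39 of the 40 wild-type and all 39 knockout TTAGGG members were overlapped.

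Words of SINEs were frequent at the summits. An Alu-type word lay within 100 bp of the summit in 105 wild-type members, 14.9% (12.4 to 17.8), and in 218 knockout members, 18.4% (16.2 to 20.7), against 0.935% and 1.15% of the flanks and 0.998% of the space. B1-type words lay in 10.4% (8.22 to 12.9) and 11.8% (10.0 to 13.8), against 2.73% and 3.14% of the flanks and 2.66% of the space. In the wild-type the words were nearly confined to the overlapped members, with an Alu-type word in 103 of 571 (18.0%) but in 2 of 133 members without a knockout peak (1.50%, 0.183 to 5.33), which is no more than in their flanks (1.51%). In the knockout they were as frequent in members without a wild-type peak, 114 of 612 (18.6%), as in overlapped members, 104 of 576 (18.1%). From which copies the reads at these sites came was not tested. Alu-type words, the forms of primates, stood further above their flanks than the B1-type words of the mouse. Whether fragments at the members with Alu-type words, GGAAT arrays or TTAGGG arrays came from these mouse sites or from DNA of another species, such as human, was not tested, and the folds and ratios of these classes carry this limit.

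**Figure D2:**
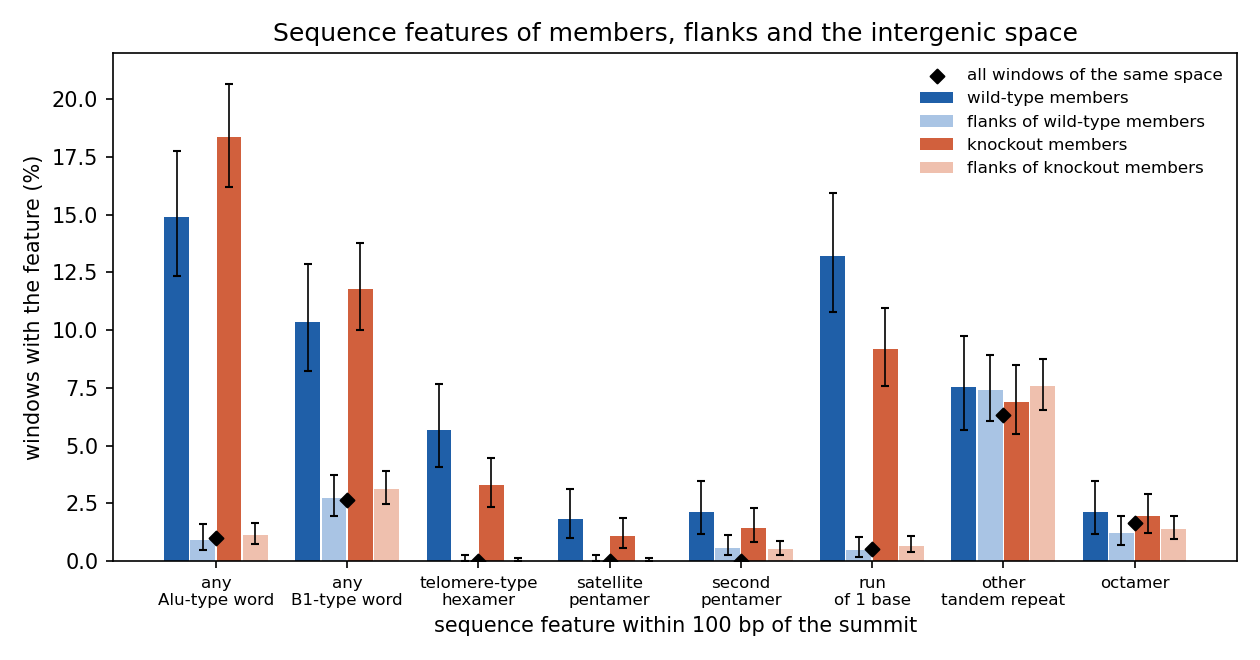
Share of windows (y axis, percent) that hold each sequence feature (x axis) within 100 bp of the summit in wild-type members (blue) and knockout members (orange), and in windows 1000 bp to either side (pale bars). Error bars are exact 95% binomial intervals and diamonds give all 252524 windows of the same intergenic space, and the intervals of summits and flanks do not overlap for the SINE words, the hexamer, the satellite pentamer and the runs of 1 base in either list and for the second pentamer in the wild-type, but overlap for the second pentamer in the knockout and for other tandem repeats and the octamer in both.

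The share of Alu-type words differed among the parts of each list. In the wild-type it was 18.1% (10.9 to 27.4) of the 94 peaks within 1 kb of a start, 26.6% (23.0 to 30.3) of peaks at 1 to 10 kb, 21.8% (18.9 to 24.8) of peaks in gene bodies, 14.9% of the members and 5.80% (4.16 to 7.85) of intergenic peaks beyond 100 kb. In the knockout it was 22.1%, 28.7%, 23.0%, 18.4% and 6.93% in the same order. The members' intervals did not overlap with those of the peaks at 1 to 10 kb, in gene bodies or beyond 100 kb in either list, but did with those of the peaks within 1 kb. Tandem repeats lay in 21.3%, 24.5%, 28.2%, 30.4% and 35.6% of wild-type peaks in that order, and in the knockout in 17.2% of peaks within 1 kb, 21.9% of the members and 26.6% of peaks beyond 100 kb.

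Each member was placed in 1 class in the order telomere-type hexamer (TTAGGG), satellite pentamer, second pentamer (CAGCA), run of 1 base, other tandem repeat, Alu-type word, B1-type word and none of these. The classes differed in strength. The median fold was 35.0 for the 13 wild-type members of the satellite pentamer GGAAT, 28.1 for the 40 with the hexamer and 26.1 for the 15 with the second pentamer, but 8.91 for the 98 members with Alu-type words, 8.23 for the 48 with B1-type words, 7.54 for the 93 with a run of 1 base and 7.54 for the 344 with none of these. The knockout medians were 41.7, 27.4, 26.0, 9.58, 8.21, 7.52 and 8.21 in the same order. The last class held 48.9% of the wild-type and 53.5% of the knockout members.

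The classes also differed in overlap. Of the wild-type members with Alu-type words, 96 of 98 were overlapped, 98.0% (92.8 to 99.8), and of those with B1-type words 45 of 48. Of the members with a run of 1 base, 51 of 93 were overlapped, 54.8% (44.2 to 65.2), and of those with none of these features 269 of 344, 78.2% (73.5 to 82.4). In the knockout the Alu-type class was overlapped at 48.3% (41.2 to 55.4), no more than the list as a whole.

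Where both genotypes had a peak, the knockout fold was usually the higher. Over the 571 wild-type members with a knockout peak, the ratio of knockout to wild-type fold had a median of 1.18 (quartiles 0.998 and 1.39) and exceeded 1 in 380. Such ratios exist only at sites called in both lists. They are not scaled to depth. The relative library size, knockout over wild-type, was 1.06 when read from the expected pileups with the narrowest widths as fragment lengths. How far depth enters the ratios was not tested. The ratio was 1.31 (quartiles 1.18 and 1.47) in the 96 pairs with Alu-type words, above 1 in 87 of them, and 1.30 in the 45 pairs with B1-type words, above 1 in 39. It was 0.952 (quartiles 0.855 and 0.998) in the 39 TTAGGG pairs, above 1 in 9, and 0.998, equal pileups, in the 51 pairs with a run of 1 base. GGAAT pairs had a median of 1.11, CAGCA pairs 0.998 and pairs with none of these features 1.18. At overlapping wild-type peaks in all other positions outside the dense bins, the medians were 1.33 for 331 pairs with Alu-type words and 0.969 for 116 TTAGGG pairs.

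Because strong pairs approach the ceiling, the ratios were also read from pairs with a wild-type fold from 10 to below 25. Such a range is set on the denominator of the ratio and favours low ratios, so pairs with a fold of 15 or more in either genotype were read beside it. That second set has no upper limit and still holds pairs near the ceiling, where the ratio of the ceilings is 0.951. It includes 30 of the 39 TTAGGG pairs, so neither reading frees their ratio from a limit. In the range the median was 1.30 in 35 pairs with Alu-type words, above 1 in 33, and 1.37 in 17 pairs with B1-type words, above 1 in all 17. It was 1.16 in 82 pairs with none of these features, 0.934 in 12 TTAGGG pairs and 0.886 in 20 pairs with a run of 1 base. In the strong pairs the medians in the same order were 1.37 (34 pairs), 1.41 (18), 1.24 (68), 0.967 (30) and 0.869 (9). Other tandem repeats had a median of 0.959 in the 17 pairs of the range, 1.34 in the 12 strong pairs and 1.16 over all pairs, so that their direction depended on the selection. The largest single ratio, 5.13, belonged to a CAGCA pair near Zfp825, where a broad knockout peak covers more than 1 wild-type summit. Ntrk2 gave 57 fragments in the knockout (43.2 to 73.9) against 40 in the wild-type (28.6 to 54.5), and Shisa2 46 (33.7 to 61.4) against 34 (23.5 to 47.5). For single sites of this size the intervals of the genotypes overlapped.

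**Figure D3:**
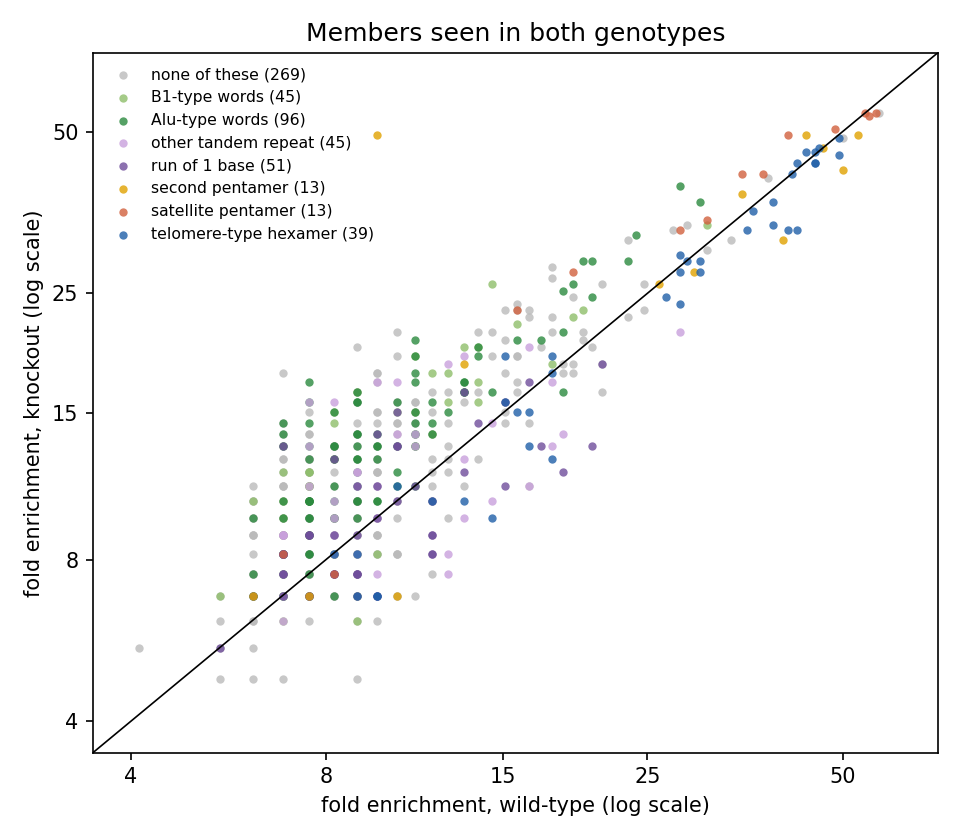
Fold enrichment of the 571 wild-type members overlapped by a knockout peak, in the wild-type (x axis, log scale) and at the overlapping peak of the knockout (y axis, log scale), coloured by sequence class with the number of pairs. The line marks equal folds, the arrays fill the upper right near the ceiling and most pairs with SINE words lie above the line.

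**Figure D4:**
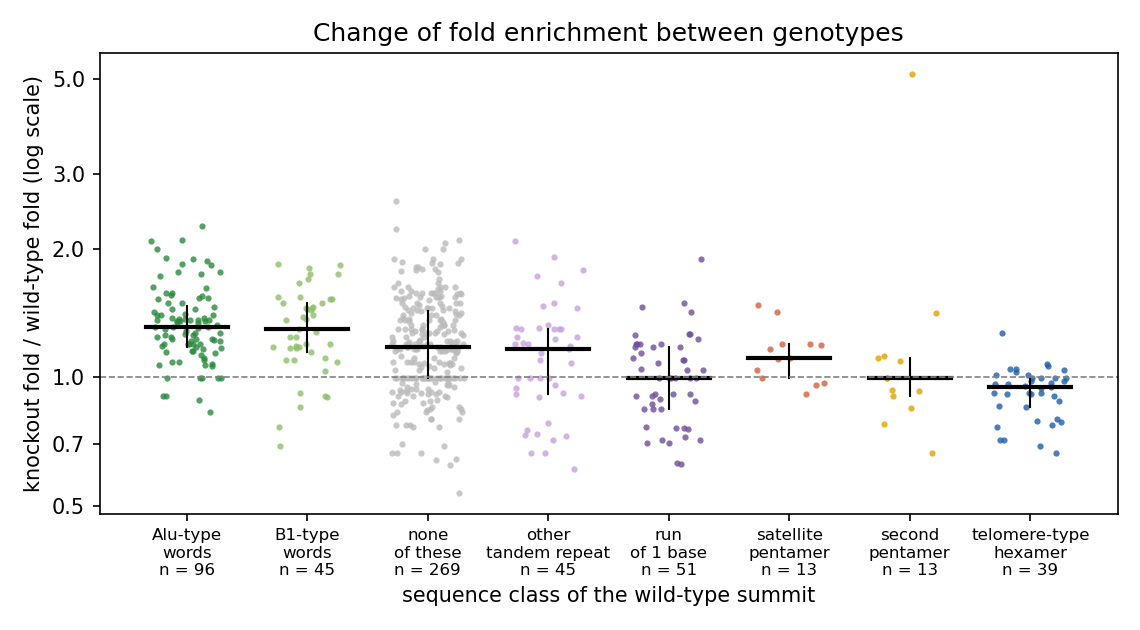
Ratio of knockout to wild-type fold (y axis, log scale) of the same 571 pairs by sequence class of the wild-type summit (x axis), with 1 point per pair. Thick bars give medians and thin bars quartiles, and the medians run from 1.31 for Alu-type words to 0.952 for the telomere-type hexamer.

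The octamer ATGCAAAT, searched on both strands, lay within 100 bp of the summit in 15 wild-type members, 2.13% (1.20 to 3.49), and 23 knockout members, 1.94% (1.23 to 2.89). The flanks held it in 1.22% (0.714 to 1.95) and 1.40% (0.965 to 1.96), and 1.67% of the windows of the space did, so the intervals at the summits include the value of the space. Of the 133 wild-type members without a knockout peak, 6 held it, 4.51% (1.67 to 9.56), against 0.755% of their flanks (0.0915 to 2.70), and of the 571 overlapped members 9 did, 1.58% (0.723 to 2.97). The lower limit of the first share is at the value of the space, and the intervals of both shares overlap. In the knockout, 2.29% (1.26 to 3.81) of the members without a wild-type peak and 1.56% (0.717 to 2.95) of the overlapped held it. Among intergenic peaks beyond 100 kb the octamer lay in 3.57% (2.30 to 5.27) in the wild-type and 5.47% (4.16 to 7.04) in the knockout, and only the knockout interval lies clear of that of its members. The SOX element CATTGT in the 8 bases before an octamer, the arrangement of pluripotency enhancers, was found in 0 of 704 and 0 of 1188 members, which allows shares of up to 0.523% and 0.310%. No match says only that these letters are not in the windows.

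The octamer members were of modest fold. The strongest in the wild-type lay 34.2 kb upstream of Shisa3, with 14 fragments (7.65 to 23.5) against 9 in the knockout, and 40.4 kb upstream of Lmo2, a regulator of blood and endothelial development, with 13 (6.92 to 22.2) against 11. The members near B3gnt5, Zdbf2 and Slc34a2 had 11, 10 and 10 fragments, and 11, 12 and 10 in the knockout. All 5 were overlapped. The strongest in the knockout was near Gm16429, with 16 fragments (9.15 to 26.0) against 10 in the wild-type. It was followed by a site near Tmem247 with 13 fragments and no wild-type peak, and by Zdbf2 and Sv2b with 12 each. The windows near Gm16429 and Tmem247 occur 10 and 9 times in the assembly. The octamer is in capitals in the sequences of 4 of these members. It lies inside the called peak near Zdbf2. Near Shisa3, Slc34a2 and Sv2b it lies outside the called peak but within 100 bp of the summit, and their printed stretches do not hold the summit.
Shisa3, chr5:67573750-67573800: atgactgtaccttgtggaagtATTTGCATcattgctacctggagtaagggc
Zdbf2, chr1:63349881-63349931: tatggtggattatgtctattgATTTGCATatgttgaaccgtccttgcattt
Slc34a2, chr5:53089687-53089737: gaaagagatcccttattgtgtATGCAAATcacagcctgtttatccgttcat
Sv2b, chr7:75342573-75342623: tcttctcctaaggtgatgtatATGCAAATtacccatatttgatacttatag

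The members were spread over many genes. The 704 wild-type members had 593 nearest genes and the 1188 knockout members 1007, of 13008 protein-coding genes with eligible space (4.56% and 7.74%), and 508 genes had members of both lists. With members joined across gaps of up to 10 kb, they formed 617 and 1083 loci, of which 580 and 1026 were single peaks. Loci of 3 or more peaks held 84 and 78 members.

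Genes nearest to at least 3 members of both lists numbered 11. Gm14496, with 13 wild-type and 12 knockout members across 85.0 kb, and Polr3k, a subunit of RNA polymerase III, with 7 and 7 in 1.98 kb, lie beside each other near the end of chromosome 2. Zfp825 had 7 and 10, Ccr1, a chemokine receptor gene, 7 and 3, Vmn2r-ps159 6 and 8, and Gm21060 6 and 6. Apbb1ip, Vmn1r77, Snrpe, Zfp709 and 2010315B03Rik completed the set with 3 to 7 each. Near Zfp709 none of the 3 wild-type and 6 knockout members overlapped, with folds from 4.79 to 6.17, whereas all 6 of both lists near Gm21060 did, with folds from 10.3 to 45.8.

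Copies in the assembly were counted as the median number of occurrences of the 31-base words of a window. Of the wild-type members, 204 (29.0%) had 2 or more copies and 97 (13.8%) had 10 or more, and of the knockout members 290 (24.4%) and 119 (10.0%). Of the wild-type members without a knockout peak, 47.4% had 2 or more copies, against 24.7% of the overlapped, and of the knockout members without a wild-type peak 23.4%, against 25.5% of the overlapped. Windows of 3 members in each list also occur in the mitochondrial genome. At 1 of them, near Col19a1, the summit lies in the pseudogene Gm28437 and the folds were 27.4 and 32.8. How reads that align to more than 1 place were treated is not given in the sources used here.

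The distances of the members are given beside those of their space as a description, since the rule selects on distance. Of the wild-type members, 26.0% (22.8 to 29.4) lay 10 to 20 kb from the nearest start, and of the knockout members 27.9% (25.3 to 30.5), against 22.8% of the space. From 50 to 100 kb there were 31.1% (27.7 to 34.7) and 30.6% (28.0 to 33.3), against 36.5% of the space. Upstream of the nearest gene lay 63.4% (59.7 to 66.9) and 66.0% (63.2 to 68.7), close to the 64.3% of the space. Fold showed no order with distance, with a median from 8.21 to 8.91 in every distance class of both lists. Summits of 100 wild-type and 157 knockout members lay inside an annotated gene that is not protein-coding, among them 46 and 84 in lincRNA genes.

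**Figure D5:**
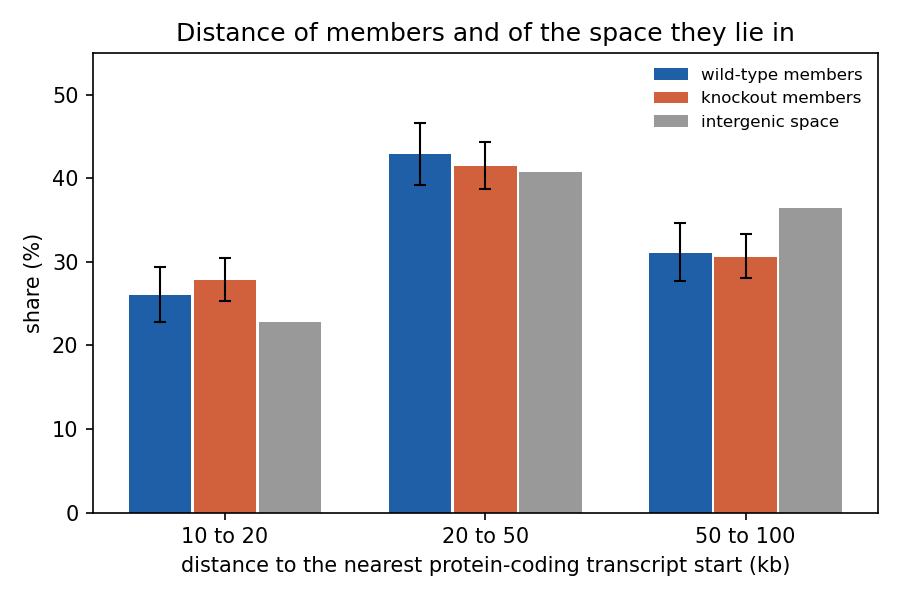
Share of members (y axis, percent) by distance to the nearest protein-coding transcript start (x axis, kb), for wild-type members (blue), knockout members (orange) and the eligible intergenic space (grey). Error bars are exact 95% binomial intervals. The rule selects on distance, so the shares are given as a description.

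Of the pluripotency network, 5 of 29 genes with eligible space were nearest to a wild-type member and 7 to a knockout member, beside 4.56% and 7.74% of all 13008 genes with such space. The listed genes held 0.710% of the wild-type members (0.231 to 1.65) and 0.422% of the space. The strongest lay 71.3 kb downstream of the start of Sox2, the partner of Oct4 in pluripotent cells, with 17 wild-type and 21 knockout fragments (folds 12.3 and 15.0). It was followed in the wild-type by Smad1, a BMP signal transducer, with folds of 8.23 and 13.0, and by Otx2, a homeobox factor of early development, with 8.23 and 10.3. All 3 summits carry an Alu-type word. Mycn, with folds of 7.54 and 10.9, and Klf2, with 7.54 and 8.21, were also in both lists, and Esrrb and Sall4 had members of 9 fragments in the knockout alone.

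Of the SMC contractile genes, 2 of 13 had a member, the same in both lists, beside 4.56% (wild-type) and 7.74% (knockout) of all genes with space. They held 0.284% of the wild-type members (0.0344 to 1.02) and 0.108% of the space. The member 41.9 kb upstream of Mylk, the myosin light chain kinase, had folds of 17.8 and 19.2 and lies on a TTAGGG array. The member 73.1 kb downstream of the start of Itga8, an integrin of SMC, had folds of 10.3 and 15.7 and carries an Alu-type word. Of the 19 genes of SMC lesion phenotypes, none had a wild-type member and Sox9, a chondrogenic factor, had 1 of 8 fragments in the knockout. No member of either list was nearest to any of 30 listed chemokine, cytokine, adhesion and NF-κB pathway genes or of 13 listed leukocyte markers. These genes hold 0.240% and 0.0324% of the space, and the lesion genes 0.228%. A count of 0 allows up to 0.523% of wild-type and 0.310% of knockout members, so no absence is read from it. These lists are selections, and genes outside them such as Ccr1 and Ptgs2, the inducible prostaglandin synthase, were nearest to members.

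Growth factor signalling had 6 genes with wild-type and 9 with knockout members of 40, beside 4.56% and 7.74% of all genes with space. The listed genes held 0.852% of the wild-type members (0.313 to 1.85) and 0.561% of the space. Wnt2 led with folds of 12.3 and 16.4, and the member 79.6 kb upstream of Tgfbr2, the type II TGF-β receptor, had 8.91 and 13.7 and carries an Alu-type word. Bmpr1b, a BMP receptor, had 8.91 and 10.3 at its shared site. Hey1, Bmp4, Hes1 and Pdgfra had members in the knockout alone, with 16, 13, 11 and 9 fragments and an Alu-type word at all but Hes1, and Pdgfb, the PDGF B chain, had 1 in the wild-type alone with 8 fragments. Its window occurs 155 times in the assembly.

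Of the POU, SOX and KLF factors, 4 of 39 genes had wild-type and 9 knockout members, beside 4.56% and 7.74% of all genes with space. They held 0.568% of the wild-type members (0.155 to 1.45) and 0.684% of the space. The member 26.7 kb upstream of Klf17 had folds of 11.7 and 17.8, below Sox2 in the wild-type and above it in the knockout, and the member near Klf3, with an Alu-type word, had 7.54 and 8.89. Klf9, Sox10, Sox9 and Klf14 had members in the knockout alone, with 6 to 10 fragments, and the member near Klf9 was the only 1 of the list genes with an octamer. Among coronary artery disease loci, 6 of 35 genes had members in both lists, beside 508 of the 13008 genes with space. They included Cdkn2a, a cell cycle inhibitor (folds 16.5 and 17.1), Edn1, the vasoconstrictor endothelin 1 (13.0 and 17.1), and Flt1, a VEGF receptor (7.54 and 14.4). The Edn1 and Flt1 summits carry an Alu-type word, with the limit given for that class, and the Cdkn2a summit a run of 1 base.

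The remaining lists had few members, and their counts stand beside 4.56% (wild-type) and 7.74% (knockout) of all genes with space. Extracellular matrix genes had Adamts1 in both lists with folds of 5.49 and 6.84, and Lama2 and Lama4 in the knockout alone, of 34. Of 27 listed genes of guidance and migration, Epha5 alone had a member, in the wild-type, with 9 fragments. Outside this selection, Unc5a, a netrin receptor, had a member in both genotypes with folds of 6.86 and 8.21 and an Alu-type word, and Sema6d, a semaphorin, had 1 with 10.3 and 10.9 on a TTAGGG array. Of 25 lipoprotein and cholesterol genes, Apob, the main protein of LDL, was in both lists with folds of 8.91 and 6.84, on a TTAGGG array. Flt1 was the 1 endothelial marker of 12. In every list the interval of the wild-type share of members included the share of the space that its genes hold. The same was true in the knockout except for the 27 listed guidance genes, which had 0 members (up to 0.310%) and hold 0.460% of the space.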

How the data were processed

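Oct4 ChIP-seq was used from 2 samples, 1 per genotype. The authors aligned reads with Bowtie to GRCm38.p6, removed duplicates and called peaks with MACS2 at q < 0.05. Versions, the control and the handling of reads with several positions are not given in the sources used here. Since all folds of a list are multiples of 1 step, they hold no correction that varies by site. This limit also applies to the members on repeats and in several copies. The deposited lists give the MACS2 score, the fold (a ratio), the −log10 p and q, and the place of the summit as the only other value used. Depth is known only through the expected pileup, and the relative library size of 1.06 (knockout over wild-type) takes the narrowest peak width as the fragment length. The wild-type over knockout list was identical to the wild-type list in all 5455 peaks.

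Distances used protein-coding transcripts of GENCODE M21 (22028 of 55536 genes), and sequences came from the RefSeq GRCm38.p6 assembly. Windows held 201 bases, the space was read every 500 bp for position and every 2000 bp for sequence, and copies used words of 31 bases. Members and gene lists were chosen with earlier results of these data known, and the SINE words, repeat classes and the range of folds from 10 to 25 after the data were seen. Genes named were those nearest to the 12 strongest members and the 8 strongest without a peak in the other list (summits within 1000 bp counted once), up to 5 octamer members per list, genes with 3 or more members of both lists and up to 3 per gene list, leaving out those on chromosome 18. Other genes were chosen after their values were seen. Calculations ran in Python 3.11.15 with pysam 0.24.0, scipy 1.17.1, numba 0.67.0, pandas 2.3.3 and matplotlib 3.10.9, and the scripts were tested on simulated data. The alternatives moved the q limit, the gene set, the point measured from, the dense bins, both distance limits, the overlap and the octamer search.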

Additional observations from a re-analysis of the deposited data

How the results depend on the processing

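In 71 of 80 comparisons with an alternative, shares stayed within the reported interval, medians within the reported quartiles and counts within 1.5 times the reported value. The wild-type over knockout list is identical to the wild-type list and gives no comparison. With distances to all annotated genes, the upstream share became 49.1% (wild-type) and 54.2% (knockout) and the knockout octamer share 3.69%. With the dense bins kept, there were 1209 wild-type members, of which 62.8% were overlapped, and 62.6% of knockout members lay upstream. With an overlap of at least 50% of both peaks, 77.3% of wild-type members were overlapped. With 1 mismatch allowed, 19.6% of wild-type and 21.7% of knockout members held the octamer. A setting chosen after seeing the data kept the 367 wild-type and 732 knockout members with 1 copy and no tandem repeat, of which 89.9% and 44.9% were overlapped. Apart from the construction of each alternative, the cause of these moves was not tested.

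No paired analysis was possible because each genotype has a single pooled sample. The median member rests on 11 fragments, and how far sites called in 1 list alone lay under the limit of the other was not tested. The pileup ceiling limits what can be read at the strongest sites. The deposited lists hold called peaks only, with no signal elsewhere.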
